A study of Mus musculus with 2 samples.

Results

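Expression of 10 genes that blood vessel endothelium expresses across vessel types was described in the newborn mouse spleen: Pecam1, Cdh5, Kdr, Tek, Tie1, Emcn, Egfl7, Esam, Cldn5 and Eng. The 10 were chosen by name, as known endothelial genes, with earlier results of these data known, from 43346 Ensembl genes in the deposited tables. The samples were the spleens of 2 pups of 1 pregnancy, of mouse strain B6NCrl, taken on the day of birth (0 days). The labels name no engineered allele and no treatment, and sex was not collected. Total RNA longer than 200 nucleotides was sequenced from 10 ng of starting RNA, with 1 library per spleen. Pup 2 gave replicate 1, and pup 1 gave replicate 2. There is therefore 1 group with n = 2, no contrast between conditions and no p-value. The spread between the libraries is the spread between littermates together with any technical spread, and these cannot be told apart. Both samples carry the same donor identifier although their descriptions name separate pups, so that they are separate animals rests on those descriptions.

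Endothelial cells line blood vessels. Their junctions are held by VE-cadherin (Cdh5), claudin-5 (Cldn5), Esam and PECAM-1 (Pecam1), and their growth and survival are steered by VEGF receptor 2 (Kdr), the angiopoietin receptor Tie2 (Tek) with its partner Tie1, and the BMP co-receptor endoglin (Eng). In the spleen the vessels include arterioles and the open sinuses of the red pulp, and around birth the mouse spleen is also a site of blood cell formation. Several of the 10 genes are not restricted to endothelium: PECAM-1 is on platelets and many leukocytes, Esam on megakaryocytes and blood stem cells, Tie2 on blood stem cells, and endoglin on macrophages and early red cell precursors.

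All 10 genes were detected in both libraries, at levels that spread 20.2-fold from Emcn to Egfl7. Levels are given as TPM, the unit that is scaled for transcript length and so allows genes to be set beside each other. Their summed level was 288 TPM in replicate 1 and 358 TPM in replicate 2, a mean of 323 ± 50.05 TPM (SD, n = 2). They drew 18478 and 21710 reads, between 250 and 3616 per gene and library, of library totals of 33122187 and 32162543. All 10 stood at 1 TPM or more in both libraries, as did 13420 of all 43346 genes. Of the 10, 8 stood at 10 TPM or more in both libraries, as did 15.9% of all 43346 genes. Among the 11932 protein-coding genes with at least 1 TPM in both, 54.7% did so. The same 8 members lay above the median of those genes, 13.1 TPM, on their mean, and 2, Tek and Emcn, lay below it. For 9 of the 10 the deposited gene-level posterior SD of the count was 0 in both libraries, so that almost no read was shared with another gene.

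Sequences are shown for chosen places where transcripts of Pecam1, Tek, Emcn and Eng differ and for the microRNA that lies within Egfl7. They are read from GENCODE transcripts and RefSeq on the GRCm38 build, are written 5′ to 3′, and are taken up again beside the values below. Capitals mark an alternative exon, the bases by which splice forms differ, or a seed.
Pecam1-202, 57-base exon at chr11:106671742-106671798, minus strand: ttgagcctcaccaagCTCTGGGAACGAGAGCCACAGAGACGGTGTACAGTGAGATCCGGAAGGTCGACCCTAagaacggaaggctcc
Pecam1-203, the same junction without that exon: ttgagcctcaccaagagaacggaaggctcc
Pecam1-204, 23-base exon at chr11:106662002-106662024, minus strand: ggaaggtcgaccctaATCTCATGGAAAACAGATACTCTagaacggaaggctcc
Tek-203, 153-base exon at chr4:94799127-94799279, plus strand: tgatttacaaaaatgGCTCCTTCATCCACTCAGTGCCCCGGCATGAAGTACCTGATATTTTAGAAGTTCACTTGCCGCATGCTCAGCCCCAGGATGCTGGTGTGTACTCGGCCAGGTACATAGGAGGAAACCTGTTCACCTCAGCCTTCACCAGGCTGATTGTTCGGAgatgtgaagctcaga
Tek-202, the same junction without that exon: tgatttacaaaaatggatgtgaagctcaga
Emcn-202, 39-base exon at chr3:137403984-137404022, plus strand: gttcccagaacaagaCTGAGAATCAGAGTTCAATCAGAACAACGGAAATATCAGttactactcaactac
Emcn-201, the same junction without that exon: gttcccagaacaagattactactcaactac
Eng-201, junction of exons 1 and 2 at chr2:32657516, plus strand: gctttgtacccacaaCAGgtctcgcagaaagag
Eng-205, the same junction with exon 2 from chr2:32657519: gctttgtacccacaagtctcgcagaaagag
mmu-miR-126a-3p at chr2:26591402-26591423, plus strand, seed of bases 2 to 8 in capitals: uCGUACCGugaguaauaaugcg

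**Figure D1:**
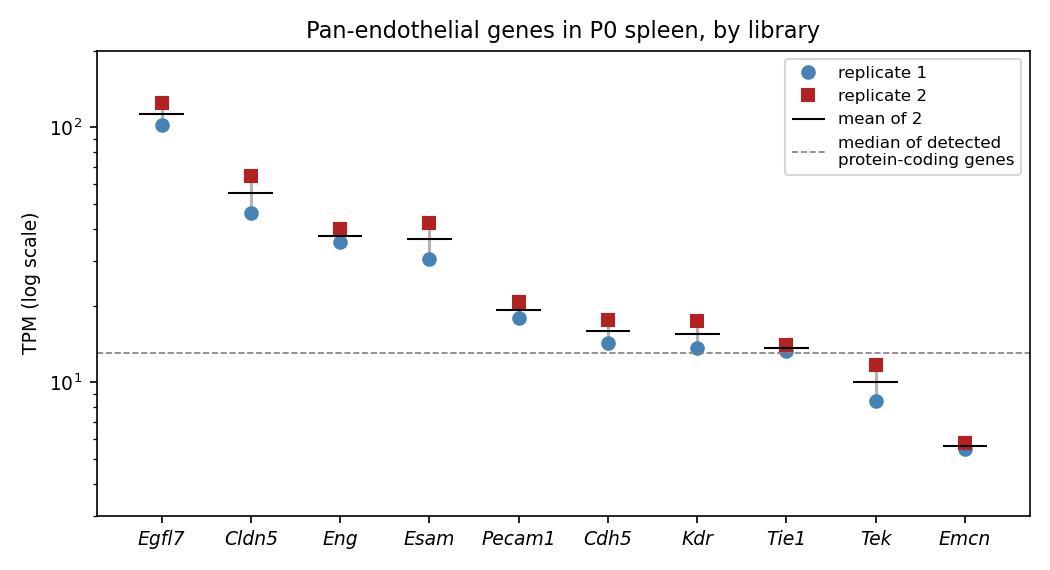
Level of each of the 10 genes (TPM, log axis) in replicate 1 (circles) and replicate 2 (squares), with the mean of the 2 libraries as a bar and the median of detected protein-coding genes, 13.1 TPM, as a dashed line. Egfl7 leads at over 100 TPM in both libraries, Emcn is lowest at 5.47 and 5.78 TPM, and each gene's square lies above its circle.

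Among the secreted and surface products, Egfl7 was the most abundant. Egfl7 (ENSMUSG00000026921, chr2:26580014-26593120 on GRCm38, as all coordinates here, plus strand), which encodes a secreted factor of vessel growth, stood at 102 TPM in replicate 1 and 125 TPM in replicate 2, with 2648 and 3093 reads. Its mean of 113 ± 15.8 TPM (SD, n = 2) exceeded that of 92.1% of the detected protein-coding genes, and it made up 35.6% and 34.8% of the summed TPM of the 10. Emcn (ENSMUSG00000054690, chr3:137341067-137432185, plus strand), which encodes the sialomucin endomucin of veins and capillaries, was lowest at 5.47 and 5.78 TPM, on 250 and 261 reads. Egfl7 was 18.7 times Emcn in replicate 1 and 21.6 times in replicate 2, so the ends of the order were far apart in both pups.

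The junction genes spanned the upper part of the order. Cldn5 (ENSMUSG00000041378, chr16:18776847-18778262, plus strand), the claudin of endothelial tight junctions, stood at 46.4 and 64.8 TPM, a mean of 55.6 ± 13.0 TPM (SD, n = 2). Esam (ENSMUSG00000001946, chr9:37528078-37538319, plus strand), an immunoglobulin-type adhesion molecule, stood at 30.5 and 42.2 TPM, a mean of 36.4 ± 8.27 TPM. These were the junction genes with the widest gap between pups, higher in replicate 2 in each case. Pecam1 (ENSMUSG00000020717, chr11:106654217-106750628, minus strand) stood at 17.9 and 20.6 TPM, a mean of 19.2 ± 1.93 TPM. Cdh5 (ENSMUSG00000031871, chr8:104101625-104144511, plus strand), the cadherin of endothelial adherens junctions, stood at 14.3 and 17.6 TPM, a mean of 15.9 ± 2.34 TPM. The claudin was thus 3.25 times the cadherin in replicate 1 and 3.68 times in replicate 2.

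The receptors ranged from the third to the ninth place in the order. Eng (ENSMUSG00000026814, chr2:32646595-32682669, plus strand) led them at 35.5 and 39.8 TPM, a mean of 37.6 ± 3.06 TPM (SD, n = 2), and had the most reads of the 10, 3297 and 3616. Kdr (ENSMUSG00000062960, chr5:75932827-75978458, minus strand) stood at 13.6 and 17.4 TPM, a mean of 15.5 ± 2.69 TPM. Kdr and Cdh5 were nearly level, at a Cdh5 to Kdr ratio of 1.05 and 1.01. Tie1 (ENSMUSG00000033191, chr4:118471191-118490061, minus strand) stood at 13.3 and 13.96 TPM, a mean of 13.6 ± 0.495 TPM, and its 2 libraries were among the closest of the 10. Tek (ENSMUSG00000006386, chr4:94739289-94874976, plus strand) stood at 8.45 and 11.7 TPM, a mean of 10.1 ± 2.28 TPM. Tie1, which has no high-affinity ligand of its own and works through Tie2, was above Tek in both pups, 1.57 times and 1.196 times.

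Read from highest to lowest mean, the order was Egfl7, Cldn5, Eng, Esam, Pecam1, Cdh5, Kdr, Tie1, Tek and Emcn. The ranges over the 2 libraries overlapped for 3 neighbouring pairs: Eng with Esam, Cdh5 with Kdr, and Kdr with Tie1. Within each library the order was the same except that Eng stood above Esam in replicate 1 and below it in replicate 2. The deposited TPM of Egfl7 rests on a short average length, 920 and 934 nucleotides, because short 3′ transcripts take part of its reads. When reads were instead divided by the length of the longest coding transcript of each gene, an alternative chosen after seeing the data, Egfl7 still led and Emcn was still lowest, with 2064 and 98.7 reads per kilobase on the mean.

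Differences between the pups were small and, for most members, in the direction of replicate 2. Counts were scaled by the trimmed mean of M-values (TMM), which assumes that most genes do not differ, and each fold carries a 95% exact Clopper-Pearson interval that covers counting error only. The median of the 10 was 1.12-fold higher in replicate 2, a log2 difference (replicate 1 minus replicate 2) of -0.16, beside a median of -0.01 over all 15499 genes whose counts averaged 20 or more. Of the 10, 9 were higher in replicate 2 at any size, beside 50.9% of all genes tested. Of the 10, 3 were at least 1.2-fold higher in replicate 2, beside 20% of all genes tested, and at 10 genes that count is not apart from the background. None was 1.2-fold higher in replicate 1, beside 13.1%, and none was 1.5-fold higher in replicate 2, beside 4.54%.

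**Figure D2:**
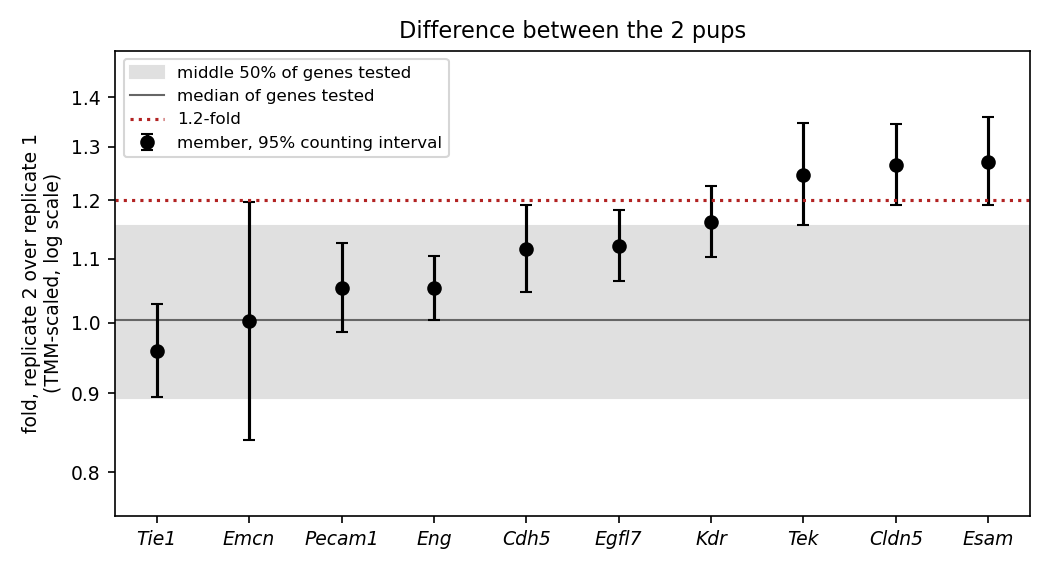
Fold of replicate 2 over replicate 1 for each of the 10 genes after TMM scaling (log axis), with 95% exact counting intervals, the middle 50% of all genes tested in grey and the 1.2-fold line dotted. Esam, Cldn5 and Tek lie above the dotted line at 1.27, 1.27 and 1.25, and Tie1 lies lowest at 0.959.

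The 3 members past 1.2-fold were Esam at 1.27-fold (interval 1.19 to 1.36), Cldn5 at 1.27-fold (1.19 to 1.34) and Tek at 1.25-fold (1.16 to 1.35). Kdr followed at 1.16-fold (1.10 to 1.23), Egfl7 at 1.12-fold (1.06 to 1.18) and Cdh5 at 1.12-fold (1.05 to 1.19). These 6 genes, and Eng at 1.05-fold (1.00 to 1.10), had intervals that lay above 1, while those of Pecam1, Emcn and Tie1 included it. Pecam1 was at 1.05-fold (0.986 to 1.13), Emcn at 1.00-fold (0.840 to 1.198) and Tie1 at 0.959-fold (0.894 to 1.03). The middle 50% of all genes tested lay between 0.894-fold and 1.15-fold, a range that held 6 of the 10 members. With 1 library per pup none of these folds has a replicate check.

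How many members were higher in replicate 2 depended on the scaling, as it did for all genes. Under library size alone, and in the ratio of deposited TPM, all 10 were higher, beside 66.1% and 70.1% of all genes tested, and Tie1 changed side. Under the spike-in totals, which rest on 694 and 748 reads, 8 were higher, beside 43.7%, and Emcn changed side. The ratio of deposited TPM moved the median of all genes by -0.14 on the log2 scale from its TMM value. Measured against the median of all genes under the same scaling, the median member was 1.11-fold to 1.12-fold higher in replicate 2 under each of these scalings. Scaling by TMM, library size or spike-in totals shifts all genes by nearly the same amount, so their agreement here is fixed by construction. Only the ratio of deposited TPM could have differed, and it gave 1.11-fold.

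Markers of other cells differed between the same pups, and their part in the members' differences was not tested. In a bulk sample fewer cells of a type and less RNA per cell cannot be told apart. Of 9 macrophage genes, led by the complement genes C1qb, C1qa and C1qc, 9 were higher in replicate 2 and 8 by at least 1.2-fold, with a summed level of 238 and 367 TPM and a median of 1.43-fold. Timd4, a receptor of tissue macrophages, was 2.23-fold higher in replicate 2 (interval 1.68 to 3.10). Of 9 genes of blood stem and progenitor cells, led by Gfi1b, Cd34 and Meis1, 7 were higher in replicate 2, with a summed level of 209 and 223 TPM and a median of 1.18-fold. Gfi1b was among the 2 that were higher in replicate 1, at 0.836-fold of replicate 2 over replicate 1 (interval 0.806 to 0.866). It alone stood at 131 and 120 TPM, so the sum rests largely on a gene that goes against the list's direction. The macrophage list thus had a larger median than the 10 endothelial genes, and the progenitor list one close to theirs.

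Of 9 megakaryocyte and platelet genes, led by Pf4, Ppbp and Gp1bb, 4 were higher in replicate 2, with a summed level of 538 and 563 TPM and a median of 0.998-fold. Platelet genes were therefore abundant beside Pecam1 and Esam, which platelets also carry, and level between the pups as a list under TMM scaling. Of 7 red cell genes, led by Alas2, Slc4a1 and Klf1, all were higher in replicate 1, 6 of them by at least 1.2-fold, with a summed level of 1853 and 1673 TPM and a median of 0.789-fold of replicate 2 over replicate 1. Adult globins took 27.8% and 25.7% of all TPM. Of 8 neutrophil genes, led by S100a8, S100a9 and Retnlg, 7 were higher in replicate 2, with a summed level of 13521 and 19152 TPM. All 5 B cell genes, led by Cd79b, Cd79a and Ms4a1, were higher in replicate 2, with a summed level of 86.3 and 123 TPM and a median of 1.25-fold.

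Genes of the splenic frame and of a neighbouring organ also differed between the libraries. All 8 stromal and perivascular genes, led by Cxcl12, Col3a1 and Col1a1, were higher in replicate 2, with a summed level of 785 and 1108 TPM and a median of 1.16-fold. Of 6 smooth muscle genes, led by Acta2, Tagln and Smtn, 5 were at least 1.2-fold higher in replicate 1, with a summed level of 404 and 314 TPM. Genes of pancreatic acinar cells, an organ next to the spleen, summed to 974 and 375 TPM, and all 8 of the acinar genes tested were at least 1.2-fold higher in replicate 1. The acinar genes Ctrb1, Clps and Cela2a led that list at 0.360-fold, 0.297-fold and 0.288-fold of replicate 2 over replicate 1. Cela3b, Cel and Cpa1 were also more than 2-fold apart, and so were the islet gene Ins2 at 0.473-fold and the T cell gene Cd4 at 2.29-fold. By TPM all 10 endothelial genes stood lower in replicate 1, beside 70.1% of all genes tested. A link between the endothelial and the acinar genes was not tested. No gene of these cell type lists was at 0 reads in both libraries.

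**Figure D3:**
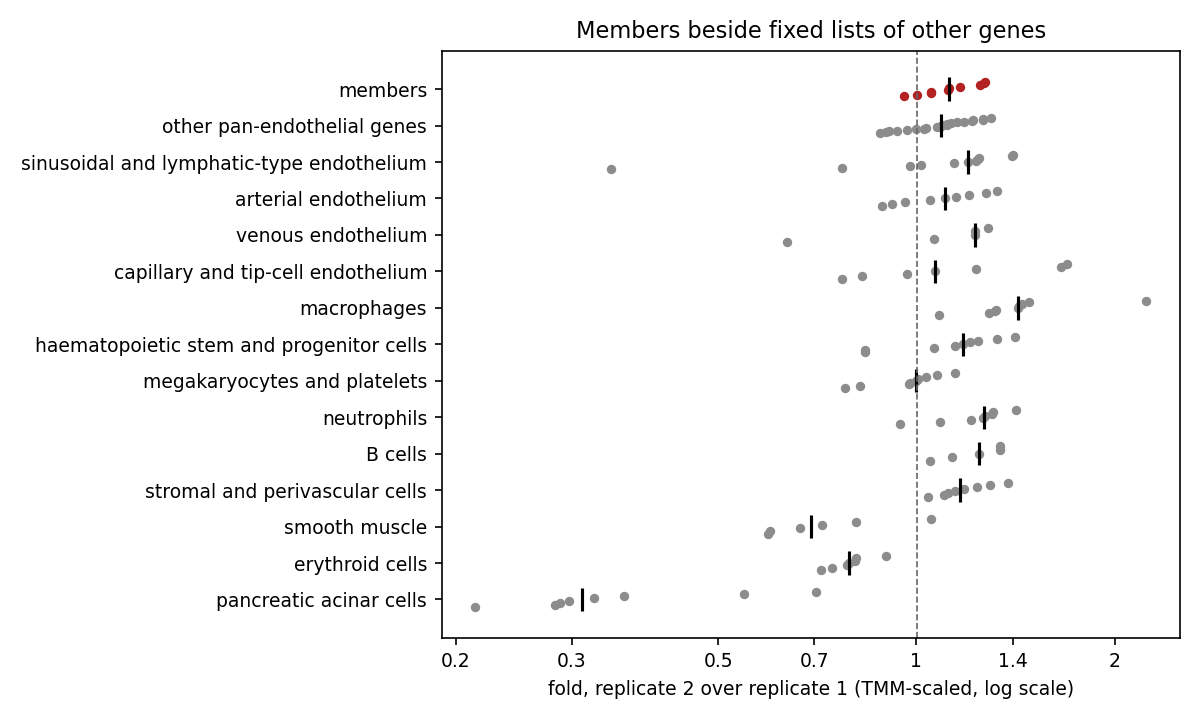
Fold of replicate 2 over replicate 1 after TMM scaling (log axis) for the tested genes of the 10-gene set (red) and of 14 further lists (grey), with each list's median as a black bar and the median of all genes tested as a dashed line. The 10 genes sit between 0.959-fold and 1.27-fold, macrophage genes lie further right, and red cell, smooth muscle and pancreatic acinar genes lie mostly left of the line.

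The ligands and partners of Kdr were measured beside it. VEGF receptor 2 transmits the growth signal of VEGF-A, while Flt1 acts largely as a decoy receptor and Flt4 serves VEGF-C and VEGF-D. Of 9 genes of the pathway, 9 were at 1 TPM or more in both libraries. The co-receptor Nrp1 was highest on the mean at 12.5 and 17.6 TPM, close to Kdr, at a ratio to Kdr of 0.921 and 1.01. The ligand Vegfb stood at 12.8 and 15.4 TPM, above Nrp1 in replicate 1, and the lymphatic ligand Vegfc at 5.09 and 6.19 TPM. Kdr exceeded both sister receptors, being 2.78 and 3.04 times Flt1 and 4.84 and 4.60 times Flt4. It was 3.58 and 3.39 times the level of its ligand gene Vegfa. Of the 9, 8 were higher in replicate 2, 5 of them by at least 1.2-fold, with a median of 1.23-fold.

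In the angiopoietin system, Angpt1 is the Tie2 agonist made by perivascular cells and platelets, Angpt2 is the context-dependent ligand stored by endothelium, and Ptprb is the phosphatase that restrains Tie2. Of 6 genes, 5 were at 1 TPM or more in both libraries, and these 5 were all higher in replicate 2, 2 of them by at least 1.2-fold, with a median of 1.17-fold. The adaptor Dok2, which is also expressed by blood cells, was highest at 12.2 and 15.1 TPM. Angpt1 stood at 3.61 and 4.81 TPM and Foxo1, a transcription factor restrained by Tie2 signalling, at 2.62 and 3.66 TPM. The receptor Tek was 2.34 and 2.43 times its ligand gene Angpt1, and Angpt1 was 1.71 and 1.95 times Angpt2. The agonist gene was therefore above the context-dependent ligand gene in both pups.

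Endoglin presents BMP9 and BMP10 to the receptor ALK1, the product of Acvrl1, whose SMAD signal induces Id genes. Of 18 genes of this pathway, 15 were at 1 TPM or more in both libraries. Id3 led at 94.1 and 124 TPM, Id1 followed at 50.5 and 55.2 TPM and the betaglycan gene Tgfbr3 stood at 13.9 and 18.2 TPM. Eng exceeded its receptor partner Acvrl1 4.85 times in replicate 1 and 3.68 times in replicate 2. The ligand gene Bmp10 drew 0 reads in both libraries, which allows up to 3 reads, or 0.0906 and 0.0933 CPM (reads scaled by the library total). Gdf2, the gene of BMP9, stood at 0.13 and 0.26 TPM, on 12 and 22 reads. Of 16 genes tested, 14 were higher in replicate 2, 7 of them by at least 1.2-fold, with a median of 1.199-fold. Id genes respond to BMP signals in many cell types, so their level is that of the whole tissue.

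**Figure D4:**
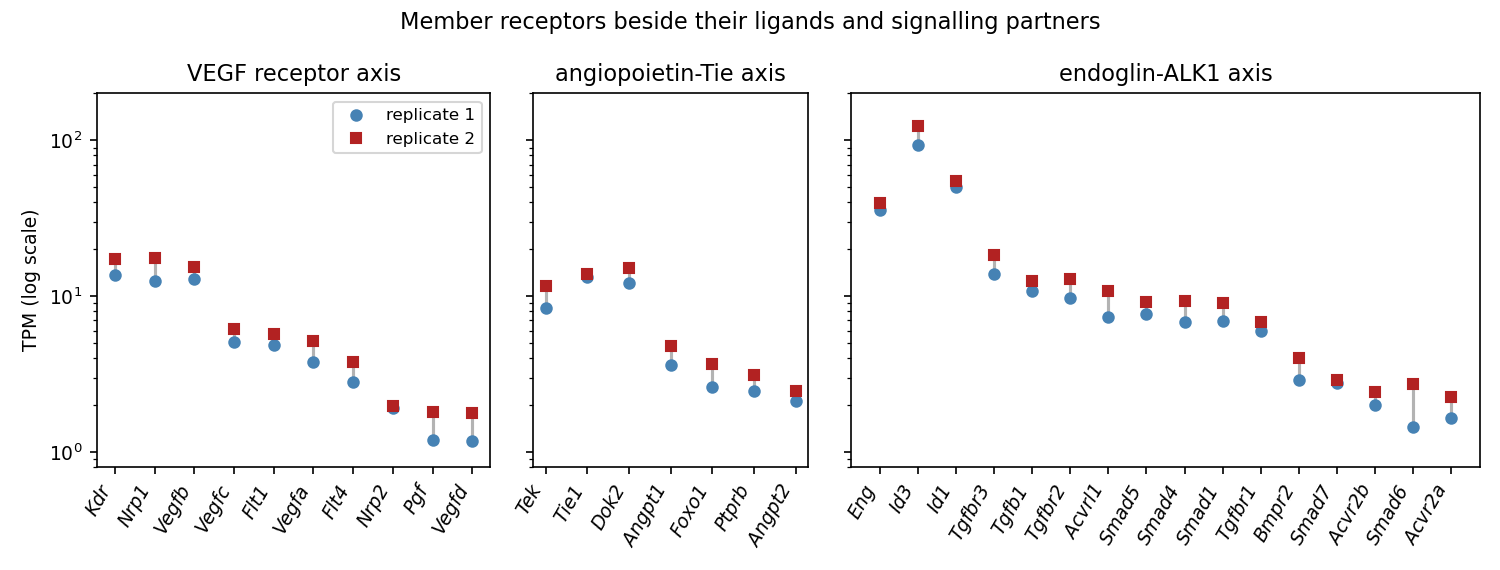
Levels (TPM, log axis) of Kdr, of Tek and Tie1, and of Eng, each at the left of its panel, beside the genes of their pathways with at least 1 TPM in both libraries, in replicate 1 (circles) and replicate 2 (squares). Kdr stands above Flt1, Flt4 and the VEGF ligand genes, Tek and Tie1 stand above both angiopoietin genes, and Eng stands above Acvrl1 but below Id3 and Id1.

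Cytoplasmic and membrane partners of the junction genes were present throughout. Of 12 genes, 11 were at 1 TPM or more in both libraries, led by the catenin genes Ctnnb1 at 70.4 and 80.2 TPM and Ctnna1 at 32.1 and 37.8 TPM and by the junction molecule F11r at 20.98 and 26.9 TPM. Catenins bind every classical cadherin and are found in nearly all cells. Of the 12, 10 were higher in replicate 2, 1 of them by at least 1.2-fold, with a median of 1.10-fold. The phosphatases that bind the PECAM-1 tail were Ptpn6 at 64.7 and 83.2 TPM, Inpp5d at 27.0 and 31.0 TPM and Ptpn11 at 12.2 and 12.7 TPM, of which Ptpn6 and Inpp5d are known from blood cells.

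Within the claudin family Cldn5 was not the highest. Of 22 other claudin genes matched, 5 were at 1 TPM or more in both libraries. Cldn13, which is expressed in the red cell lineage, stood at 361 and 293 TPM, 7.80 and 4.53 times Cldn5, and was higher in replicate 1, opposite to Cldn5. Cldn15 stood at 13.4 and 15.5 TPM and Cldn1 at 8.33 and 8.89 TPM, both below Cldn5. Cldn7 and Cldn11 were more than 2-fold higher in replicate 1 on few reads, 31 against 13 and 33 against 16. Cldn17 and Cldn24 drew 0 reads in both libraries.

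Transcript estimates divide a gene's reads among its annotated forms, and they were firm for some members and loose for others. Cdh5 and Cldn5 have 1 annotated transcript each. Kdr-201 held 98.7% and 99.3% of the TPM of Kdr, Esam-201 held 92.2% and 94.2% of that of Esam, and Tie1-201 held 90.1% and 88.1% of that of Tie1. For these 3 genes 1 full-length coding transcript accounted for most of the level in both pups.

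**Figure D5:**
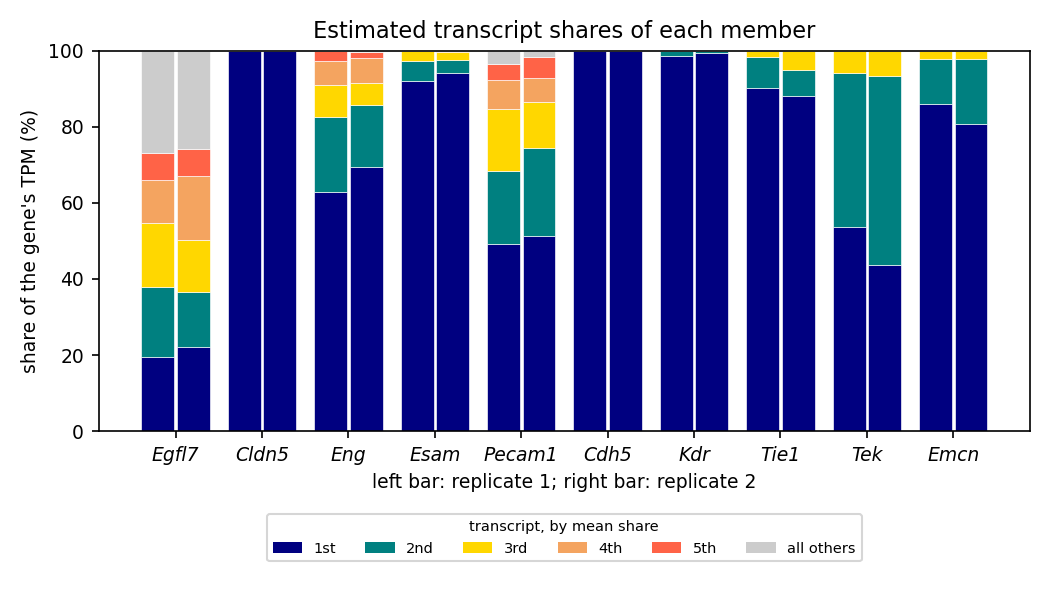
Share of each gene's TPM (%) given to its transcripts in replicate 1 (left bar) and replicate 2 (right bar), with the 5 highest by mean share in colour and all others in grey. 1 transcript fills most of the bar for Cldn5, Cdh5, Kdr, Esam and Tie1, whereas Egfl7, Pecam1 and Tek are divided, and the lead in Tek changes between the libraries.

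Pecam1 was divided over its cytoplasmic tail exons and 1 further coding exon. Pecam1-203, which lacks the 57-base exon shown above, held 49.1% and 51.2% of the gene's TPM. Pecam1-202, which has that exon, held 19.2% and 23.2%, and Pecam1-207 held 16.5% and 12.2%. Over the 5 coding transcripts that span the site, those with the 57-base exon held 47.8% and 45.5%, a mean of 46.7 ± 1.60% (SD, n = 2). Forms with and without this exon were therefore estimated at similar levels in both pups. The exon is a multiple of 3 bases long and keeps the frame. The 23-base exon that follows in Pecam1-204 and Pecam1-207 does not, and forms with it held 25.5% and 19.6%. Pecam1-207 also lacks a 303-base coding exon at chr11:106697052-106697354. Over the coding transcripts that span this exon, forms with it held 82.5% and 87.0%. The posterior SD of the deposited count was 91.8 and 100.7 reads for Pecam1-203, on 868 and 983 reads.

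Tek was divided at an exon of its extracellular part. Tek-203, with the 153-base exon, held 53.6% and 43.8% of the TPM, and Tek-202, without it, held 40.6% and 49.5%. The leading form thus changed between the pups. Forms with the exon, Tek-201 included, held 59.4% and 50.5% in all, a mean of 54.9 ± 6.32% (SD, n = 2). The posterior SD was 86.8 and 92.0 reads for Tek-203, on 651 and 693 reads, and 83.1 and 89.7 reads for Tek-202, on 482 and 765 reads. As a share of the gene's reads these SDs lie between 5.78% and 7.26%, of the same order as the change in share between the pups.

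Emcn was estimated mainly without the 39-base exon. Emcn-201, which lacks it, held 86.1% and 80.6% of the TPM, and Emcn-202, which has it, held 11.7% and 17.1%. In reads the division was less uneven, 186 and 174 for Emcn-201 against 50.5 and 73.5 for Emcn-202, because Emcn-202 is 2588 nucleotides long and Emcn-201 1357. The length of the transcript therefore enters the share along with the exon.

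Eng was led by Eng-201, with 63.0% and 69.4% of the TPM. Eng-205, whose exon 2 starts 3 bases later so that the bases in capitals above are absent, held 19.5% and 16.2%. The posterior SD was 118 and 114 reads for Eng-205, on 722 and 635 reads. The difference of 3 bases between Eng-201 and Eng-205 keeps the reading frame.

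Egfl7 was the most divided, over 19 annotated transcripts, of which 14 drew reads. Egfl7-202 led with 19.4% and 22.2% of the TPM, which was 30.0% and 33.9% of the reads. Egfl7-203, a short form of 521 nucleotides, held 18.5% and 14.4%, Egfl7-216 held 16.8% and 13.6%, and Egfl7-213, a retained-intron form of 536 nucleotides at the 3′ end, held 11.5% and 16.7%. Retained-intron forms together held 20.7% and 24.8%, the highest of the 10 genes. The longer coding forms differ in their start. Among the 5 considered, those starting at chr2:26583864 and chr2:26583880 held 51.7% and 59.6% of their TPM. The form starting at chr2:26586630 held 36.2% and 29.3%, and that starting at chr2:26581056 held 12.1% and 11.1%. The remaining form, Egfl7-209, is only 892 nucleotides long, starts at chr2:26588543 and drew 0 reads, so it adds nothing to these shares.

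The hairpin of miR-126a, a microRNA known for its high level in endothelium, lies at chr2:26591357-26591429 within intron 7 of Egfl7-202, which spans chr2:26591064-26591663. In all, 8 Egfl7 transcripts carry it in an intron, and these held 65.1% and 61.2% of the gene's TPM. Egfl7-206, a retained-intron form, carries it in an exon and held 1.48% and 0.947%. The gene Mir126a itself was listed at 0 reads in both libraries. Its 73 nucleotides are fewer than the 99 by which the deposited tables shorten each length, so no read could be assigned to it, and RNA below 200 nucleotides was not sampled. The mature form printed above was thus not measured here.

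The bases before the 2 most used Egfl7 starts of the longer coding forms considered above are shown because most reads of those forms divide between them. Short forms are not in this ranking, such as Egfl7-203, which starts at chr2:26590965 and stood at 18.9 and 17.9 TPM. ETS factors such as Erg and Fli1 bind sites with the core GGAA in many endothelial genes, and the motif searched was CNGGAAG, on both strands. Capitals mark its matches in the 250 bases before each RefSeq start.
Egfl7 before the start used by Egfl7-201 and Egfl7-202, chr2:26583615-26583864: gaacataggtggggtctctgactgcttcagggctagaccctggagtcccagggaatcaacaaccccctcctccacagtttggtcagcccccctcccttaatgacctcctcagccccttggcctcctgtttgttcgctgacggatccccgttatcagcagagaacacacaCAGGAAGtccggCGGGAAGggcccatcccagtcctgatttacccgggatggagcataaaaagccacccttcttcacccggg
Egfl7 before the start used by Egfl7-216, chr2:26586386-26586635: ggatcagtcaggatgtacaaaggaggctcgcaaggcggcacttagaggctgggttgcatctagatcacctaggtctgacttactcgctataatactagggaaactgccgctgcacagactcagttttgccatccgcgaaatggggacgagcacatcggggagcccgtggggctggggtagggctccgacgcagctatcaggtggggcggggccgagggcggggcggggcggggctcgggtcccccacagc
Among these longer forms, the window of the leading start holds 2 matches, the nearer 69 bases before the start, and the other holds 0. The window of the least used of their 3 starts, that of Egfl7-212, also holds 2 matches, so matches did not follow the use of these starts. The nearer lies 49 bases before the RefSeq start. That window ends at chr2:26581082, whereas Egfl7-212 itself starts at chr2:26581056. RefSeq windows were matched for 7 of the 10 genes, 9 windows in all, and not for Pecam1, Cdh5 and Esam. At least 1 match was found for 3 of the 7 genes, Egfl7, Emcn and Tie1, and in 4 of the 9 windows, beside 26.6% of 32851 windows of the same length genome-wide. With 9 windows that share is not apart from the background, and a match is a description of letters only.

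Neighbouring genes limit what the reads at the gene ends show. Agpat2, on the other strand, overlaps the annotated end of Egfl7, and Fpgs, on the other strand, overlaps that of Eng. No source used here says if the counting took account of strand. Gm20532, annotated on the same strand across part of Egfl7, was listed at 0 reads in both libraries.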

How the data were processed

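Total RNA of 2 littermate spleens was sequenced with 1 library each, and the authors deposited tables for genes and transcripts. Per the file headers these give the estimated (expected) count, in which a read matching several features is divided among them, the TPM, its posterior mean and SD, and for transcripts the percent of the gene's TPM. Per the labels and the listing deposited with each sample, the assembly was mm10 and the annotation GENCODE M4; no source used here names the aligner or the software. Of 43346 Ensembl genes, 42462 were named and placed by identifier from GENCODE M21 (GRCm38). The transcript lengths of 8 members equal those of M21, and Cdh5 and Cldn5 differ by a few bases.

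Deposited expected counts were rounded and scaled with edgeR 4.0.16 (TMM, log2 CPM, prior count 2), and folds were read for genes whose counts averaged 20 or more. DESeq2 1.42.0 size factors, library size, spike-in totals and the ratio of deposited TPM were alternatives. The spike-in totals summed the reads of those of the 97 listed spike-in sequences that are labelled ERCC. Intervals cover counting error only. The 10 members and the 25 lists of other genes were chosen with earlier results of these data known; 248 of 250 list entries matched a gene, and Cldn25 and Mir126b did not. 1 gene in each of 2 lists is not reported here and was left out of its list. Named were all members, the 3 highest genes by mean TPM of each list, genes at 0 reads in both libraries, genes 2-fold or more apart whose counts averaged 20 or more, and transcripts that lead a member or hold at least 10% of its TPM in both libraries. Promoter windows and the microRNA are from RefSeq on GRCm38.p6.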

Additional observations from a re-analysis of the deposited data

How the results depend on the processing

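The mean summed TPM of the 10 genes, 323, became 380 when TPM were rescaled to protein-coding genes outside the mitochondrial genome and 440 after adult globins were left out; both rescalings remove abundant transcripts from the total by construction. With replicate 1 or replicate 2 left out the sum was 358 and 288 TPM. At 20 TPM in place of 10, 4 members passed in place of 8. The median log2 difference of the 10 (replicate 1 minus replicate 2), -0.16, became -0.26 with library size alone and -0.29 in the ratio of deposited TPM. Under these scalings 5 and 6 members, in place of 3, passed 1.2-fold towards replicate 2, beside 29.5% and 34.5% of all genes tested in place of 20%, and 0 passed 1.5-fold or 2-fold. The count of all genes at least 1.2-fold higher in replicate 2, 3100 of 15499, became 6970 of 43346 with no filter, 1964 of 12365 when counts had to average 100 or more, 5343 in the ratio of deposited TPM and 4565 with library size alone; the filters change the number of genes counted by construction. No value changed direction among those past 1.2-fold. Over the 10 members together, 17 of 40 alternatives for the log2 difference lay outside the member's counting interval. All 17 were under library size alone or the ratio of deposited TPM. These scalings moved the median log2 difference of all genes by -0.0995 and -0.14 from its TMM value. A cause beyond that shift was not tested. By reads in place of TPM the share of Emcn-201 was 70.6% in place of 83.4%, since its transcripts differ in length. The motif was found before 1 of 7 genes on the given strand alone, beside 14.5% of all windows, and GGAA before 6, beside 93.4%. No paired analysis was possible because there is 1 group. Depth limits Emcn most, with 250 and 261 reads.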

Other observations

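Other genes of endothelium were detected alongside the 10. Of 22 further pan-endothelial genes, 22 were at 1 TPM or more in both libraries, beside 13420 of all 43346 genes. The median of the 22 was 6.67 and 8.03 TPM. Ramp2, a partner of the adrenomedullin receptor, led on the mean at 68.8 and 87.6 TPM, the diaphragm gene Plvap stood at 70.0 and 83.1 TPM, above it in replicate 1, and the adhesion gene Icam2 stood at 25.7 and 36.0 TPM. Of these 22, 16 were higher in replicate 2, 5 by at least 1.2-fold, with a median of 1.09-fold.

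Lists of vessel types differed in median level, but their genes spread widely and the lists overlapped. Gene means ran from 0.935 to 8.665 TPM in the arterial list and from 0.05 to 37.0 TPM in the venous. They ran from 0.05 to 266 TPM in the capillary list and from 0.13 to 76.3 TPM in the sinusoidal. With few and unlike genes per list, the medians do not rank the vessel types. Arterial genes, led by Gja4, Bmx and Gja5, were low, with a median of 1.97 and 2.38 TPM over 9 genes. Venous genes, led by Ackr1, Nr2f2 and Aplnr, had a median of 14.7 and 18.7 TPM over 6 genes. Ackr1 was at 0.636-fold of replicate 2 over replicate 1 (interval 0.585 to 0.690), while 4 of the 5 venous genes tested were higher in replicate 2. Capillary and tip-cell genes, led by Rgcc, Aqp1 and Cd36, which red cells or other blood cells also express in part, had a median of 13.4 and 15.7 TPM over 8 genes. Sinusoidal and lymphatic-type genes, led by Stab2, Ccl21a and Stab1, had a median of 7.30 and 10.4 TPM over 12 genes, and Stab2 was 4.91 and 4.69 times Cdh5. Ccl21a, a chemokine also made by lymphoid stroma, was at 0.344-fold of replicate 2 over replicate 1 (interval 0.308 to 0.382).

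Of 21 transcription factor genes of endothelium, 19 were at 1 TPM or more in both libraries, led by Lmo2 at 161 and 152 TPM, Lyl1 at 52.8 and 53.7 TPM and Sox18 at 26.2 and 40.0 TPM. Lmo2 and Lyl1 are also expressed by blood progenitors and red cell precursors. Etv2, which acts at the start of vessel formation in the embryo, drew 0 reads in both libraries. Other lists gave summed levels of 12.2 and 14.8 TPM for 6 T cell genes led by Lck, Cd3d and Cd3g, 167 and 190 TPM for 6 mesothelial genes led by Msln, Upk3b and Krt19, and 28.4 and 17.6 TPM for 6 islet genes led by Ins2, Chga and Ins1.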
